A study of Mus musculus with 21 samples.

Results

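The genes described here are 10 genes of iron and heme handling in the mouse brain: Hmox1, Blvrb, Hpx, Slc40a1, Cp, Tfrc, Slc11a2, Steap3, Fth1 and Ftl1. They form a list of genes with known roles in these pathways, and each was found by its symbol among 55416 gene IDs. The list was chosen with earlier results of these data known. Its counts and medians beside those of all genes are therefore descriptions and not tests of the set. All 10 were among the 19854 genes with enough counts to be tested. The libraries come from a mouse model of cerebral cavernous malformation, a disease in which leaky, blood-filled vessels form in the brain, and the series asks how astrocytes respond at normal and at low oxygen. Iron and heme handling is of interest in such tissue because red cells that leave a vessel release heme and iron.

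Heme taken up by a cell is opened by heme oxygenase, which frees iron and biliverdin, and biliverdin is then reduced to bilirubin. Freed iron is stored in ferritin, a shell of heavy and light chains, or leaves through ferroportin, the known iron exporter of mammalian cells, after which ferroxidases such as ceruloplasmin oxidise it. Transferrin-bound iron enters through the transferrin receptor, is reduced in the endosome and is carried into the cytosol by a divalent metal transporter. Iron regulatory proteins bind stem-loops in ferritin and transferrin receptor transcripts, so that when iron is plentiful ferritin is translated and the receptor's transcript is degraded. Astrocytes hold ferroportin and a membrane-anchored ceruloplasmin and surround the brain's vessels.

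All animals carried floxed Pdcd10 alleles (Pdcd10 fl/fl) and the reporter Aldh1l1-EGFP/Rpl10a, which tags the ribosomes of astrocytes, and brains were taken at postnatal day 57. Knockouts also carried Slco1c1-iCreERT2, a tamoxifen-dependent recombinase driven by a promoter of brain endothelium, and received 50 µg of 4-hydroxytamoxifen on postnatal day 1. The deletion is therefore aimed at endothelium, while the RNA is meant to come from astrocytes. Controls lacked the recombinase according to their labels, although the design text adds that uninjected recombinase carriers also served as controls without saying which. Whether the other controls were injected is not clear, so genotype and injection cannot be told apart. Animals breathed 21% oxygen (normoxia) or 12% oxygen for 7 days (hypoxia). The groups held 4 libraries each, except for the hypoxic knockouts with 7. Of the hypoxic controls, replicates 3 to 6 were used, and replicates 1 and 2 were not analysed here.

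The libraries held 45399320 to 65261791 counts each. Pdcd10 was lower in knockouts. Its log2 fold change was -1.32 ± 0.15 in normoxia (SE; adjusted p = 4.08e-05, from edgeR, as all adjusted p below), and in hypoxia it was -1.50 ± 0.12 (adjusted p = 1.02e-06). Mean Pdcd10 was 8.81 CPM in normoxic knockouts against 21.9 CPM in controls, and 9.55 against 27.0 CPM in hypoxia. Which cells lost Pdcd10 RNA was not tested, so the loss is not shown to be confined to endothelium. Astrocyte markers summed to 36100 to 60700 CPM, which are counts scaled to a common library size. Neuron markers summed to 654 to 3440 CPM, oligodendrocyte markers to 770 to 1480 CPM and choroid plexus markers to 178 to 4610 CPM. Sums of different genes do not give the share of cells. Knockout hypoxia replicates 1 to 3 stood apart from replicates 4 to 7, with more mitochondrially encoded RNA (395 to 649 against 29.2 to 58.2 CPM), more neuron marker RNA (2530 to 3440 against 892 to 2050 CPM) and less astrocyte marker RNA (36100 to 39100 against 43000 to 52900 CPM). Although every sample is tagged male, 5 libraries (normoxic controls 3 and 4, hypoxic control 6, hypoxic knockouts 6 and 7) held no more than 3.24 CPM of the Y-linked gene Ddx3y, and the rest held 49.4 CPM or more. Where the call of a member is lost without either set of libraries, the value without them is given. Without the libraries low in Ddx3y only normoxic controls 1 and 2 remain, and all genes called in normoxia fell from 2415 to 256. For a call lost there, fewer libraries and a difference of those left out cannot be told apart. In bulk RNA, fewer cells of a type and less RNA per cell cannot be told apart.

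Upstream sequence is shown for Hpx, Tfrc and Blvrb, the members in whose windows a motif searched for was found. They are also the 3 members that were lower in hypoxic knockouts than in hypoxic controls. RefSeq windows of build GRCm38.p6 covered 7 of the 10 members, and those of Hmox1, Slc40a1 and Slc11a2 were not used here. The 250 bases before each annotated start were searched on both strands for TGACNNNGC, the core of the antioxidant response element, and for ACGTG, the core of the hypoxia response element. Capitals mark the match.
Hpx upstream window: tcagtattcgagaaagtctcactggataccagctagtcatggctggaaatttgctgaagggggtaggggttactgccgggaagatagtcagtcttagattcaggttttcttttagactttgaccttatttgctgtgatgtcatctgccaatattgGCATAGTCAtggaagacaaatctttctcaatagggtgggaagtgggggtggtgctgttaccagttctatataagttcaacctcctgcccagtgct
Tfrc upstream site: ctcggtaggtgtACGTGcggaaggaagtga
Blvrb upstream site: cttttcatctcaACGTGaactgtgtgcttt
The Hpx window lies at chr7:105600117-105600366 on the minus strand, and its antioxidant response core, read on the opposite strand, begins 95 bases before the start. The Tfrc site lies at chr16:32608882-32608911 on the plus strand, and its ACGTG begins 228 bases before an annotated start. The Blvrb site lies at chr7:27452283-27452312 on the plus strand, and its ACGTG begins 123 bases before the start. TGACNNNGC occurred in 10.2% of all 32851 windows and in 1 of 14 windows of the members, that of Hpx. ACGTG occurred in 16.6% of all windows and in 2 of the 14, those of Blvrb and Tfrc. A match is a stretch of letters and not a tested binding site. Between hypoxic and normoxic controls neither gene with ACGTG passed, with log2 fold changes of -0.09 ± 0.17 for Tfrc and 0.055 ± 0.099 for Blvrb. Between hypoxic and normoxic knockouts Tfrc was called at -0.71 ± 0.15, and Blvrb was not at -0.01 ± 0.09.

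Levels per gene length (RPKM, as the authors deposited them) put the heavy ferritin chain far above the other members in every group. In normoxic controls Fth1 measured 104 ± 3.31 RPKM (SD, n = 4), Hmox1 20.7 ± 1.86, Ftl1 12.3 ± 0.75, Blvrb 11.1 ± 0.59, Tfrc 8.18 ± 1.53, Steap3 5.46 ± 0.68, Slc11a2 4.02 ± 0.61, Cp 1.40 ± 0.54, Hpx 0.74 ± 0.22 and Slc40a1 0.24 ± 0.04. Ftl1 and Blvrb, neighbours in this order, overlapped within 1 SD, whereas Fth1 and Hmox1 were far apart. The place of Ftl1 and its distance from Fth1 are uncertain, because the nearly identical pseudogene Ftl1-ps1 may share its reads. The row of Ftl1-ps1 held 8.37 ± 0.41 RPKM in normoxic controls. Hpx and Slc40a1 held the last ranks in all 4 groups. The order differed between groups at a single pair of neighbours, since Tfrc (8.86 ± 0.62 RPKM) stood ahead of Blvrb (8.58 ± 0.78) in normoxic knockouts and behind it in the other groups, and in normoxic knockouts their values overlapped within 1 SD, as did those of Tfrc (5.81 ± 0.97) and Steap3 (5.61 ± 1.34) in hypoxic knockouts.

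In normoxia, knockouts carried more RNA of a heme oxygenase, of the iron exporter and of the heavy ferritin chain, and less of a biliverdin reductase. Hmox1, Slc40a1 and Fth1 rose, Blvrb fell, and 6 members did not pass the test. Of all genes tested, 12.2% were called in this comparison, 6.9% higher and 5.27% lower. The median log2 fold change was 0.30 over the members and -0.01 over all genes tested.

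In hypoxia, knockouts again held more Hmox1 and Slc40a1 and less Blvrb than controls. Ftl1 rose, and Tfrc and Hpx fell, which gave 3 members higher and 3 lower, with 4 that did not pass. The background was 19.7% of genes called, 10.4% higher and 9.37% lower, and the median log2 fold change was -0.05 over the members and 0.01 over all genes. The levels by library and the fold changes are plotted side by side for the 10 genes.

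**Figure D1:**
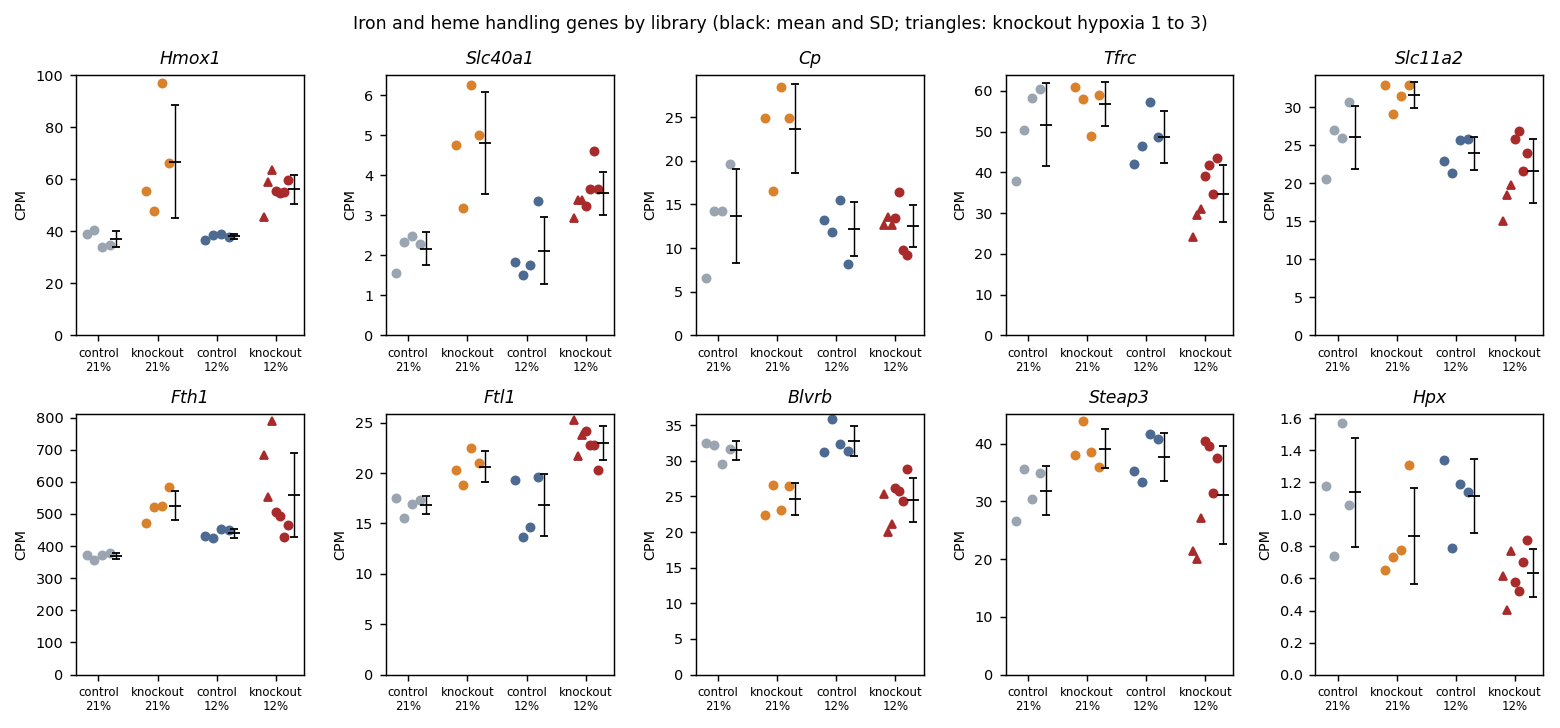
CPM (vertical axes, from 0) of each member in every library of the 4 groups (horizontal axis: genotype and percent oxygen), with the group mean and SD in black and knockout hypoxia replicates 1 to 3 as triangles. Every knockout library lies above every control library of the same oxygen level for Hmox1 and below it for Blvrb, and the triangles lie below the other hypoxic knockouts for Tfrc, Slc11a2 and Steap3 and above them for Fth1.

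**Figure D2:**
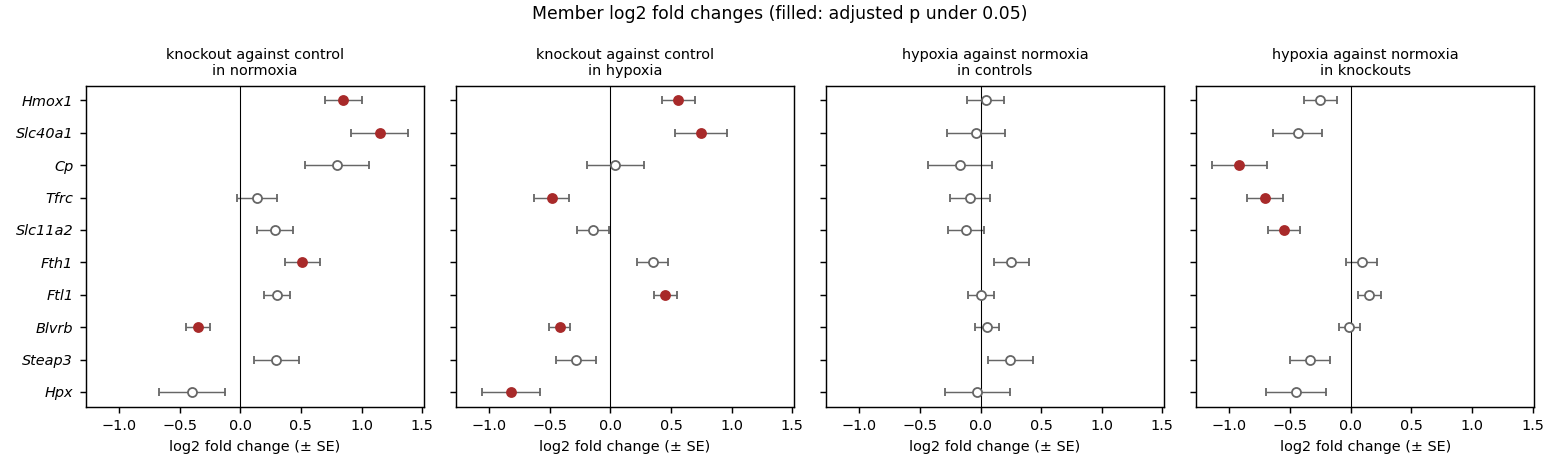
Log2 fold changes (horizontal axis, points) with SE (bars) of the 10 members in 4 comparisons, filled where the edgeR adjusted p was under 0.05. Filled points number 4, 6, 0 and 3 from left to right, and no member passed between hypoxic and normoxic controls.

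Heme breakdown is taken first. Hmox1 encodes the inducible heme oxygenase, which opens the heme ring. In normoxia it measured 55.5, 47.8, 97.1 and 66.4 CPM in knockouts 1 to 4 and 38.8, 40.5, 34.0 and 34.8 CPM in controls 1 to 4. Every knockout lay above every control, and knockout 3 was the highest. The log2 fold change was 0.85 ± 0.15 (edgeR adjusted p = 0.00213). In hypoxia it measured 45.4, 58.8, 63.5, 55.4, 54.8, 55.2 and 59.6 CPM in the 7 knockouts (median 55.4) against 36.8, 38.7, 39.1 and 37.6 CPM in controls 3 to 6, again with no overlap. The rise was 0.56 ± 0.14 (adjusted p = 0.00945), and it was 0.56 without knockout hypoxia replicates 1 to 3. Hmox1 kept its call when any single library was left out. Without the 5 libraries low in Ddx3y it was not called, at 0.75 in normoxia (adjusted p = 0.106) and 0.54 in hypoxia (adjusted p = 0.0819).

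Blvrb encodes biliverdin reductase B, a flavin reductase that is abundant in red cells and whose substrates include a fetal form of biliverdin. In normoxia it measured 22.4, 26.6, 23.1 and 26.5 CPM in knockouts against 32.5, 32.2, 29.5 and 31.7 CPM in controls. The groups did not overlap, and the log2 fold change was -0.35 ± 0.10 (adjusted p = 0.0274). In hypoxia the knockouts ran from 20.0 to 28.8 CPM (median 25.3) and the controls from 31.3 to 35.8 CPM. Here too every knockout lay below every control, and the change was -0.42 ± 0.09 (adjusted p = 0.00323), and -0.32 and still called without knockout hypoxia replicates 1 to 3. In normoxia the call was lost without knockout normoxia replicate 1 (-0.31) or 3 (-0.32), and without control normoxia replicate 1 (-0.34), 2 (-0.34) or 4 (-0.35). It was also lost there without the libraries low in Ddx3y, at -0.39 (adjusted p = 0.134).

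Hpx encodes hemopexin, the plasma protein that binds free heme with high affinity. It was among the lowest members, with 24 to 84 counts per library. In hypoxia it measured 0.614, 0.402, 0.769, 0.58, 0.524, 0.705 and 0.838 CPM in knockouts and 1.34, 0.789, 1.19 and 1.14 CPM in controls 3 to 6. The groups overlapped because control 4 lay below knockout 7. The log2 fold change was -0.82 ± 0.24 (adjusted p = 0.0235). This call was lost without knockout hypoxia replicates 1 to 3 (-0.75, adjusted p = 0.104), without the libraries low in Ddx3y (-0.94, adjusted p = 0.0623), without control hypoxia replicate 3 (-0.72), 5 (-0.79) or 6 (-0.81), and with replicate numbers as a block (-0.77, adjusted p = 0.0578). In normoxia Hpx measured 0.65 to 1.31 CPM in knockouts and 0.74 to 1.57 CPM in controls, and it did not pass (-0.40 ± 0.27).

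Iron export follows. Slc40a1 encodes ferroportin. In normoxia it measured 4.76, 3.17, 6.27 and 5.0 CPM in knockouts and 1.56, 2.34, 2.49 and 2.28 CPM in controls. No control reached the lowest knockout, and the log2 fold change of 1.15 ± 0.24 (adjusted p = 0.00554) was the largest among the members in this comparison. It was the sole member still called there without the libraries low in Ddx3y, at 1.30. In hypoxia the knockouts ran from 2.93 to 4.60 CPM (median 3.38), and controls 3 to 6 measured 1.83, 1.51, 1.76 and 3.36 CPM. Control 6, a library low in Ddx3y, overlapped the knockouts, and the others lay below them. The rise was 0.75 ± 0.21 (adjusted p = 0.022), and 0.84 and still called without knockout hypoxia replicates 1 to 3. It was lost without control hypoxia replicate 3 (0.68), 4 (0.61) or 5 (0.67).

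Cp encodes ceruloplasmin, the copper ferroxidase that oxidises exported iron. In normoxia it measured 24.9, 16.5, 28.5 and 24.9 CPM in knockouts and 6.58, 14.2, 14.3 and 19.6 CPM in controls. Knockout 2 and control 4 overlapped, and the difference of 0.79 ± 0.26 did not pass (adjusted p = 0.0563). It passed without knockout normoxia replicate 2 (0.93), without control normoxia replicate 4 (1.02) and without control hypoxia replicate 6 (0.79). In hypoxic knockouts Cp measured 9.21 to 16.4 CPM (median 12.7), close to the 8.18 to 15.5 CPM of hypoxic controls, and the difference was 0.04 ± 0.23.

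Of the 3 members of iron uptake, none passed between genotypes in normoxia, and Tfrc fell in hypoxia. Tfrc encodes the transferrin receptor. In hypoxia it measured 24.1, 29.4, 31.0, 39.2, 41.8, 34.6 and 43.4 CPM in knockouts 1 to 7 and 42.1, 46.5, 57.3 and 48.7 CPM in controls 3 to 6. Knockouts 1 to 3 were the lowest of all libraries, and knockout 7 lay just above control 3. The log2 fold change was -0.48 ± 0.15 (adjusted p = 0.0272). Without knockout hypoxia replicates 1 to 3 it was -0.29 and not called (adjusted p = 0.192), and without the libraries low in Ddx3y it was -0.56 and not called (adjusted p = 0.0582). The call was also lost without knockout hypoxia replicate 2 (-0.45) or 3 (-0.46) and without control hypoxia replicate 4 (-0.51), 5 (-0.40) or 6 (-0.48). In normoxia knockouts (49.0 to 61.0 CPM) and controls (37.9 to 60.4 CPM) overlapped, at 0.14 ± 0.17.

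Slc11a2 encodes the divalent metal transporter that carries iron out of the endosome, and Steap3 encodes a ferrireductase that acts with it in red cell precursors. Slc11a2 did not pass between genotypes, at 0.28 ± 0.15 in normoxia and -0.14 ± 0.13 in hypoxia. Steap3 did not pass either, at 0.30 ± 0.19 and -0.28 ± 0.16, although its normoxic knockouts (36.0 to 44.0 CPM) lay above all normoxic controls (26.6 to 35.7 CPM). In all, 6 members had groups without overlap in normoxia, against 19.7% of all genes tested, and 3 did so in hypoxia, against 11.9%. In hypoxic knockouts 1 to 3 Steap3 measured 20.1 to 27.2 CPM, and in knockouts 4 to 7 it measured 31.4 to 40.4 CPM. Slc11a2 was split the same way, at 15.0 to 19.8 against 21.7 to 26.9 CPM.

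Of the ferritin chains, the heavy chain was called in normoxic knockouts and the light chain in hypoxic ones. The log2 fold changes of both chains were positive at both oxygen levels. The interaction passed for neither, at -0.16 ± 0.19 for Fth1 and 0.15 ± 0.14 for Ftl1. Fth1 encodes the heavy ferritin chain, which oxidises iron as it enters the shell. In normoxia it measured 473, 521, 526 and 584 CPM in knockouts and 372, 356, 371 and 377 CPM in controls. The groups did not overlap, and the rise was 0.51 ± 0.14 (adjusted p = 0.0265). The fold change changed little but the call was lost without knockout normoxia replicate 3 (0.51) or 4 (0.46) and without any of the normoxic controls (0.49 to 0.52). It was also lost without the libraries low in Ddx3y, at 0.53 (adjusted p = 0.134). In hypoxia it measured 682, 552, 790, 506, 493, 428 and 465 CPM in knockouts and 430, 424, 453 and 451 CPM in controls. The 3 highest values were those of knockouts 1 to 3, and knockout 6 lay among the controls. The difference of 0.35 ± 0.13 did not pass (adjusted p = 0.0618). It was 0.10 without knockouts 1 to 3, and it passed without knockout hypoxia replicate 4 (0.37), 6 (0.40) or 7 (0.39).

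Ftl1 encodes the light ferritin chain, which helps iron to mineralise inside the shell. In hypoxia it measured 25.3, 21.7, 23.8, 24.2, 22.8, 22.8 and 20.3 CPM in knockouts and 19.3, 13.7, 14.6 and 19.6 CPM in controls. Every knockout lay above every control, and the rise was 0.45 ± 0.10 (adjusted p = 0.00379). It was 0.42 and still called without knockouts 1 to 3, and its call was kept when any single library was left out. In normoxia knockouts (18.8 to 22.5 CPM) also lay above controls (15.5 to 17.5 CPM), but the difference of 0.30 ± 0.11 did not pass (adjusted p = 0.0692), and it passed without knockout normoxia replicate 2 (0.34) and without control hypoxia replicate 4 (0.30). The level of Ftl1 is uncertain, because the processed pseudogene Ftl1-ps1 is nearly identical and may share its reads. That row measured 12.8 to 16.0 CPM in normoxic knockouts, 9.57 to 11.1 CPM in normoxic controls, 13.1 to 16.4 CPM in hypoxic knockouts and 8.50 to 12.6 CPM in hypoxic controls, so it too was higher in every knockout.

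Markers of other cells moved with genotype beside these genes. Microglia markers, cells that also express heme oxygenase and ferroportin, summed to 69.6 to 139 CPM in normoxic knockouts against 52.5 to 62.9 CPM in normoxic controls, and to 73.9 to 96.5 against 43.9 to 60.1 CPM in hypoxia. Of 9 such markers, 6 rose and 0 fell in each of the 2 comparisons. Markers of border macrophages, another iron-recycling cell, summed to 29.1 to 52.0 CPM in normoxic knockouts and 16.3 to 28.8 CPM in normoxic controls, with 2 of 7 higher, and to 16.4 to 24.1 against 13.8 to 25.6 CPM in hypoxia, with 0 of 7 called by edgeR or DESeq2 and 0 with an unadjusted p under 0.05. Mural markers rose in 6 of 7 and 3 of 7 cases, from 97.1 to 186 CPM in normoxic controls to 274 to 332 CPM in normoxic knockouts, and from 109 to 174 CPM to 146 to 240 CPM in hypoxia. Among 8 endothelial markers, 5 rose and 1 fell in normoxia, and 1 rose in hypoxia. Their summed endothelial level was 222 to 581 CPM in normoxic knockouts, 626 to 849 CPM in normoxic controls, 279 to 512 CPM in hypoxic knockouts and 113 to 159 CPM in hypoxic controls. The sum does not follow the counts. It was lower in normoxic knockouts, where the median log2 fold change of the 8 markers was 1.44. Between hypoxic and normoxic controls 1 marker fell, at a median of 0.10. The list holds Slco1c1, the gene whose name the recombinase carries. The share of each marker in the sum is not given here, so the sum is no measure of endothelium. Of 8 neuron markers, 1 rose in normoxia (921 to 1910 CPM summed in knockouts, 654 to 981 in controls) and 5 in hypoxia (892 to 3440 against 729 to 1130 CPM). Of 9 astrocyte markers, 2 rose in normoxia, and 2 rose and 4 fell in hypoxia, where they summed to 36100 to 52900 CPM in knockouts and 50700 to 57500 CPM in controls. Of 7 oligodendrocyte markers, 2 rose in hypoxia (785 to 1480 against 805 to 892 CPM). Of 13 mitochondrially encoded genes, 10 rose in hypoxia (29.2 to 649 against 27.9 to 51.9 CPM) and none passed with edgeR in normoxia (57.8 to 192 against 23.6 to 32.5 CPM), where 2 had an unadjusted p under 0.05 and DESeq2 called 1. No choroid plexus marker passed with edgeR in either comparison, with 4 of 7 at an unadjusted p under 0.05 in normoxia, where DESeq2 called 2. Of all genes tested, 6.9% rose and 5.27% fell in normoxia, and 10.4% rose and 9.37% fell in hypoxia. The part of these cells and of RNA quality in the members' changes was not tested.

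No member passed between hypoxic and normoxic controls. The smallest adjusted p was 0.648, no member had an unadjusted p under 0.05, and DESeq2 also called 0. Few genes were called at all in that comparison, 0.0856% of those tested (0.00504% higher and 0.0806% lower), although 1788 had an unadjusted p under 0.05. Log2 fold changes ran from -0.17 for Cp to 0.25 ± 0.14 for Fth1. Fth1 was the only member whose groups did not overlap, at 424 to 453 CPM in hypoxic and 356 to 377 CPM in normoxic controls, and 9.03% of all genes showed such a gap. A p that misses the threshold does not show that the levels were alike.

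Within knockouts, Cp, Tfrc and Slc11a2 were lower in hypoxia than in normoxia, and no member was higher. Cp fell by 0.92 ± 0.23 on the log2 scale (adjusted p = 0.0159), Tfrc by 0.71 ± 0.15 (adjusted p = 0.00649) and Slc11a2 by 0.55 ± 0.13 (adjusted p = 0.013). None of the 3 overlapped between oxygen levels: Cp measured 16.5 to 28.5 CPM in normoxic and 9.21 to 16.4 CPM in hypoxic knockouts, Tfrc 49.0 to 61.0 and 24.1 to 43.4 CPM, and Slc11a2 29.2 to 33.0 and 15.0 to 26.9 CPM. In this comparison 12.5% of genes were called, 4.76% higher and 7.77% lower, and 7.72% did not overlap. Without knockout hypoxia replicates 1 to 3, Tfrc (-0.53) and Slc11a2 (-0.38) were still called and Cp (-0.97) was not (adjusted p = 0.0577). The same direction held in the 19 fits that each left out a single library, and all 3 genes kept their calls in them. The 2 comparisons of knockouts with controls and this one share the knockout libraries.

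Whether the knockout effect itself differed between oxygen levels was tested by the interaction. No member passed with edgeR or with DESeq2, and 0.0101% of all genes did with edgeR, all of them higher. Unadjusted p was under 0.05 for Tfrc (-0.62 ± 0.22, adjusted p = 0.338), Steap3 (-0.58 ± 0.25, adjusted p = 0.388), Slc11a2 (-0.43 ± 0.20, adjusted p = 0.423) and Cp (-0.75 ± 0.35, adjusted p = 0.425). Hence the passing of Fth1 in normoxia alone, and of Ftl1, Tfrc and Hpx in hypoxia alone, is not shown to be a difference between oxygen levels.

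Globin RNA was summed in each library as a marker of red cells, but which cells it came from was not tested. The 4 adult globin genes (Hba-a1, Hba-a2, Hbb-bs, Hbb-bt) summed to 38.9, 9.5, 46.7 and 26.7 CPM in normoxic knockouts and to 4.16, 2.94, 0.861 and 1.45 CPM in normoxic controls. In hypoxia the sum ran from 25.0 to 128 CPM in knockouts (median 71.6) and from 4.52 to 5.8 CPM in controls. The groups did not overlap at either oxygen level. On the log2 scale knockouts exceeded controls by 3.72 in normoxia (two-sided exact permutation p = 0.0286, the smallest that 4 against 4 libraries allow) and by 3.52 in hypoxia (exact permutation p = 0.00606). The latter is also the smallest that this two-sided test gives for 7 against 4 libraries. The globin genes are near-identical copies in pairs, so their sum was used. Among other red cell markers, Alas2 rose in both comparisons, Slc25a37 did not pass, Slc4a1, Epb42 and Gata1 had too few counts to test, and Rhag was at 0 in every library.

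Within groups, Tfrc and Steap3 were lower in libraries with more globin RNA. A slope of log2 level on log2 globin sum, fitted by edgeR over 19 libraries with the 4 groups as terms, was -0.19 ± 0.05 for Tfrc (adjusted p = 0.016) and -0.21 ± 0.06 for Steap3 (adjusted p = 0.0223). The other 8 members did not pass, with Hmox1 at 0.13 ± 0.06 (adjusted p = 0.119), Blvrb at -0.09 ± 0.04 (adjusted p = 0.1), Slc11a2 at -0.13 ± 0.05 (adjusted p = 0.111) and Fth1 at 0.09 ± 0.05 (adjusted p = 0.307). Of all genes tested, 17.2% were called, 10.5% rising and 6.7% falling with globin. Knockout hypoxia replicates 1 to 3 hold 72.9 to 128 CPM of globin RNA and also differ in mitochondrial and neuron RNA, as given above. Without them no member passed, and the slopes were -0.16 for Tfrc (adjusted p = 0.182) and -0.10 for Steap3 (adjusted p = 0.341). With the globin sum as a covariate, 0 members were called between genotypes at either oxygen level (Hmox1 at 0.36 in normoxia and 0.11 in hypoxia, Slc40a1 at 0.90 and 0.53), in a design where globin RNA and genotype do not overlap. The Steap3 slope was also not called without knockout hypoxia replicate 2 (-0.17), 4 (-0.19) or 5 (-0.19), and the Tfrc slope not without the libraries low in Ddx3y (-0.17).

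**Figure D3:**
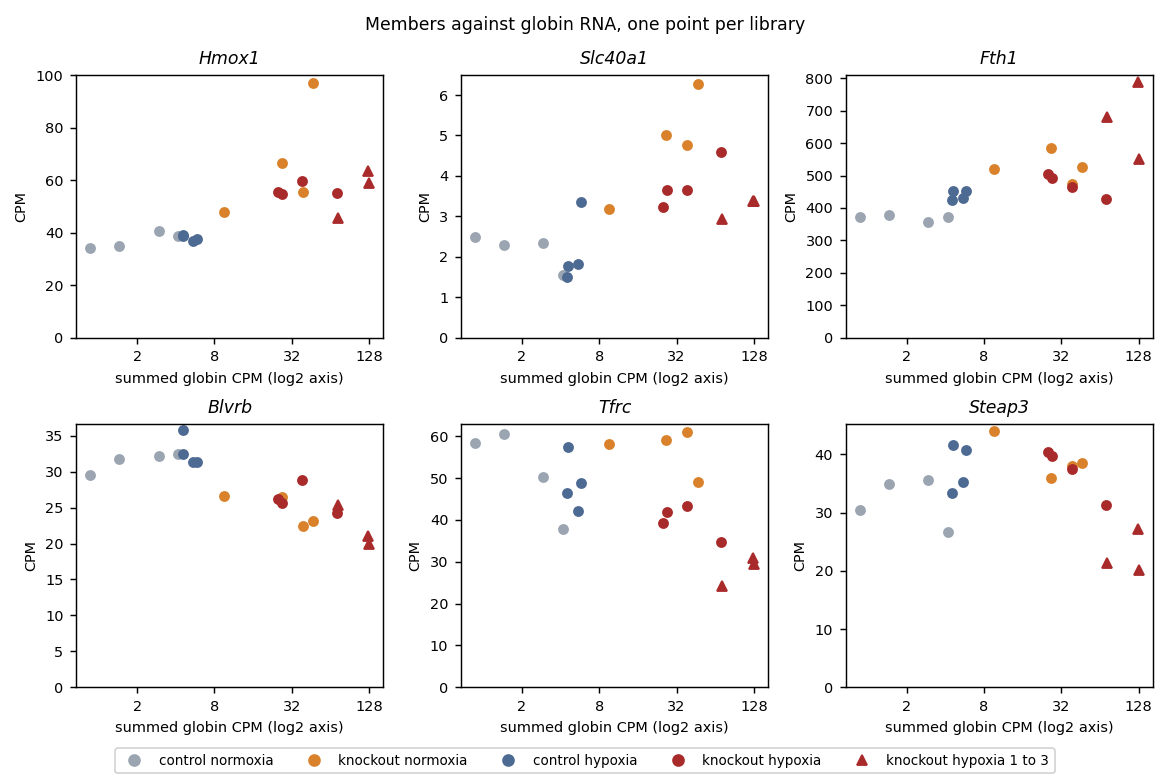
CPM of 6 members (vertical axes, linear from 0) against the summed CPM of 4 globin genes (horizontal axis, log2 scale), with a point for each of 19 libraries, coloured by group, and knockout hypoxia replicates 1 to 3 as triangles. Control libraries lie at 0.861 to 5.8 CPM of globin RNA and knockouts at 9.5 to 128 CPM, and among knockouts Steap3 and Tfrc are lowest in the triangles.

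Correlations were computed within genotypes only, because globin RNA separated them, and 30 relations were examined. Across the 11 knockouts Steap3 had a Pearson r of -0.83 (permutation p = 0.00048) and a Spearman rho of -0.86 (permutation p = 0.0011), and r was -0.77 without the 2 libraries farthest from the median globin level. Blvrb had r = -0.71 (permutation p = 0.0137) and rho = -0.81 (permutation p = 0.00386), and r = -0.62 without those 2. For Tfrc r was -0.74 (permutation p = 0.00983), rho -0.66 (permutation p = 0.031) and r without the 2 farthest -0.65, and for Slc11a2 they were -0.68 (permutation p = 0.0223), -0.67 (permutation p = 0.0284) and -0.67. Hmox1 had r = 0.18 (permutation p = 0.584) and Slc40a1 r = -0.01 (permutation p = 0.966) among knockouts.

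Within the 7 hypoxic knockouts alone, Steap3 had r = -0.86 (exact permutation p = 0.0192) and rho = -0.96 (exact permutation p = 0.00278), and Blvrb r = -0.83 (exact permutation p = 0.0226) and rho = -0.86 (exact permutation p = 0.0238). Without the 2 farthest libraries r was -0.72 for Steap3 and -0.98 for Blvrb. For Tfrc, whose level also differs between the oxygen levels pooled above, r was -0.74 (exact permutation p = 0.0671) and rho -0.75 (exact permutation p = 0.0663). For Slc11a2, which differs likewise, r was -0.76 (exact permutation p = 0.0526) and rho -0.86 (exact permutation p = 0.0238). Leaving out replicates 1 to 3 left 8 knockouts, in which Steap3 kept r = -0.84 (exact permutation p = 0.0192) but fell to -0.22 without the 2 farthest, so this relation rests on those libraries. Blvrb then had r = -0.43, Tfrc -0.49 and Slc11a2 -0.33, none with an exact permutation p under 0.05. The normoxic knockouts, with 4 libraries, are too few for a correlation of their own. In controls Hmox1 had r = 0.72 (exact permutation p = 0.0425) and rho = 0.26 (exact permutation p = 0.536), and r was -0.92 without the 2 farthest, so that relation did not hold. Fth1 in controls had rho = 0.81 (exact permutation p = 0.0218) and r = 0.66 (exact permutation p = 0.0693), and its level there also separates the oxygen levels.

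Of 15 other genes of iron import and export tested, 4 rose and 1 fell in normoxic knockouts, with a median log2 fold change of 0.21, where 6.9% of all genes tested rose and 5.27% fell. Steap4, a metalloreductase induced in inflammation, was at 0.307 to 1.27 CPM in normoxic knockouts against 0.0374 to 0.0822 CPM in controls, a rise of 3.61 ± 0.69 (adjusted p = 0.00326). Slc25a28, the mitochondrial iron carrier mitoferrin 2, fell (-0.33 ± 0.08, adjusted p = 0.013). The other risers, named after their values were seen, were Cybrd1, a duodenal ferric reductase (0.78 ± 0.23), Slc11a1, a metal transporter of phagosomes (1.51 ± 0.38), and Lcn2, which binds bacterial iron carriers (4.29 ± 1.20). None of the 5 was called without the libraries low in Ddx3y, and all genes called fell there from 2415 to 256. In hypoxia 0 of the 15 rose and 2 fell (median -0.17), with 10.4% of all genes higher and 9.37% lower, so the share that fell was near that of all genes. The 2 were Heph, a membrane ferroxidase related to ceruloplasmin (-0.93 ± 0.23, adjusted p = 0.0112), and Slc25a28 (-0.23 ± 0.07, adjusted p = 0.0275). Without knockout hypoxia replicates 1 to 3 neither was called (-0.71 and -0.24). Slc25a28 was not called either without the libraries low in Ddx3y (-0.19) or with the replicate block (-0.20, adjusted p = 0.127).

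Between hypoxic and normoxic knockouts, 1 of these 15 genes rose and 5 fell (median -0.31). Slc25a28 was the one that rose (0.24 ± 0.07). Steap4 fell by 2.15 ± 0.50, Heph by 1.06 ± 0.23 and Slc39a14, a zinc transporter that also carries iron, by 0.46 ± 0.10. The other fallers, named after their values were seen, were Cybrd1 (-0.76 ± 0.20) and Mcoln1, an endolysosomal cation channel (-0.31 ± 0.10). Of all genes, 4.76% rose and 7.77% fell here. Without knockout hypoxia replicates 1 to 3 the count was 2, with Heph (-0.85) and Slc25a28 (0.22) among the calls lost. Without the libraries low in Ddx3y it was also 2, with Steap4 (-2.14) and Slc25a28 (0.28) among those lost.

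Of 9 other genes that sense and store iron, 0 passed in normoxia with edgeR or with DESeq2 (median -0.17, 4 with an unadjusted p under 0.05), and 1 fell in hypoxia (median -0.11), which was Bmp6, the signal that raises hepcidin in liver (-0.74 ± 0.19, adjusted p = 0.0139). Of all genes tested, 12.2% were called in normoxia and 9.37% fell in hypoxia, so the share that fell was near that of all genes. Bmp6 was not called without knockout hypoxia replicates 1 to 3 (-0.57) or without the libraries low in Ddx3y (-0.76). Epas1, the hypoxia-inducible factor with an iron regulatory element, fell between normoxic and hypoxic knockouts (-0.64 ± 0.13, adjusted p = 0.00675), as the only one of the 9, where 7.77% of all genes fell. In controls Epas1 was also lower in hypoxia, at 699 to 760 against 893 to 1040 CPM. That change of -0.41 ± 0.15 did not pass (adjusted p = 0.4), but it passed without knockout hypoxia replicates 1 to 3 (-0.42, adjusted p = 0.0347). The interaction for Epas1 did not pass (-0.23 ± 0.20). Hamp, Hjv and Ftmt were not tested for lack of counts, and Ftmt was at 0 in every library.

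Among 11 other genes of heme breakdown and transport, 1 rose in normoxia and 2 fell in hypoxia, with medians of -0.06 and -0.14. Of all genes tested, 6.9% rose in normoxia and 9.37% fell in hypoxia, and no excess is read from counts this small. Cd163, the macrophage receptor for hemoglobin bound to haptoglobin, rose in normoxia (0.73 ± 0.22, adjusted p = 0.0378), from 2.25 to 3.31 CPM in controls to 4.22 to 5.74 CPM in knockouts. It was not called without the libraries low in Ddx3y (0.78, adjusted p = 0.0688). It is also a border macrophage marker, and that list's levels are given above. Slc48a1, a lysosomal heme transporter, fell in hypoxia (-0.40 ± 0.10, adjusted p = 0.00904), as did Lrp1, a receptor for hemopexin loaded with heme (-0.54 ± 0.17, adjusted p = 0.0319). Without knockout hypoxia replicates 1 to 3 Lrp1 was at -0.32 and not called, and 1 of the 2 calls was left. Neither was called without the libraries low in Ddx3y (Slc48a1 -0.42, adjusted p = 0.0578, and Lrp1 -0.62, adjusted p = 0.0964), and Slc48a1 was lost with the replicate block (-0.33, adjusted p = 0.0513). Between oxygen levels in knockouts 3 of the 11 fell (median -0.18), where 7.77% of all genes tested fell. They were Lrp1 (by 1.16 ± 0.17), Cd163 (by 0.88 ± 0.19) and Slc48a1 (by 0.39 ± 0.10). Slc48a1 was not called there without knockout hypoxia replicates 1 to 3 (-0.25) or without the libraries low in Ddx3y (-0.42).

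Of 9 genes of heme synthesis, 1 rose in normoxia, and 1 rose and 2 fell in hypoxia (medians -0.10 and -0.09). The shares over all genes tested were 6.9% higher in normoxia, and 10.4% higher and 9.37% lower in hypoxia. No excess is read from counts this small. The riser was Alas2, the erythroid form of the enzyme that starts the pathway, by 3.44 ± 0.68 (adjusted p = 0.00442) and 3.21 ± 0.58 (adjusted p = 0.0013). Its libraries held 0.631 to 2.74 CPM in normoxic knockouts, 0.0374 to 0.185 CPM in normoxic controls, 0.87 to 4.36 CPM in hypoxic knockouts and 0.105 to 0.506 CPM in hypoxic controls. Alas1, the form used by other cells, fell slightly in hypoxia (-0.20 ± 0.05, adjusted p = 0.0163), as did Alad, which makes the first pyrrole (-0.20 ± 0.06, adjusted p = 0.0382). With the replicate block the calls in hypoxia went from 3 to 1, with Alas1 (-0.19, adjusted p = 0.143) and Alad (-0.20, adjusted p = 0.101) lost. Both were also lost without the libraries low in Ddx3y (Alas1 -0.22 and Alad -0.19), as was Alas2 in normoxia (3.02, adjusted p = 0.121), and Alad without knockout hypoxia replicates 1 to 3 (-0.18). In controls, edgeR called 0 of the 44 tested genes of these 4 lists between oxygen levels, 4 of them with an unadjusted p under 0.05, and DESeq2 called 1. There edgeR called 0.0856% of all genes tested.

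**Figure D4:**
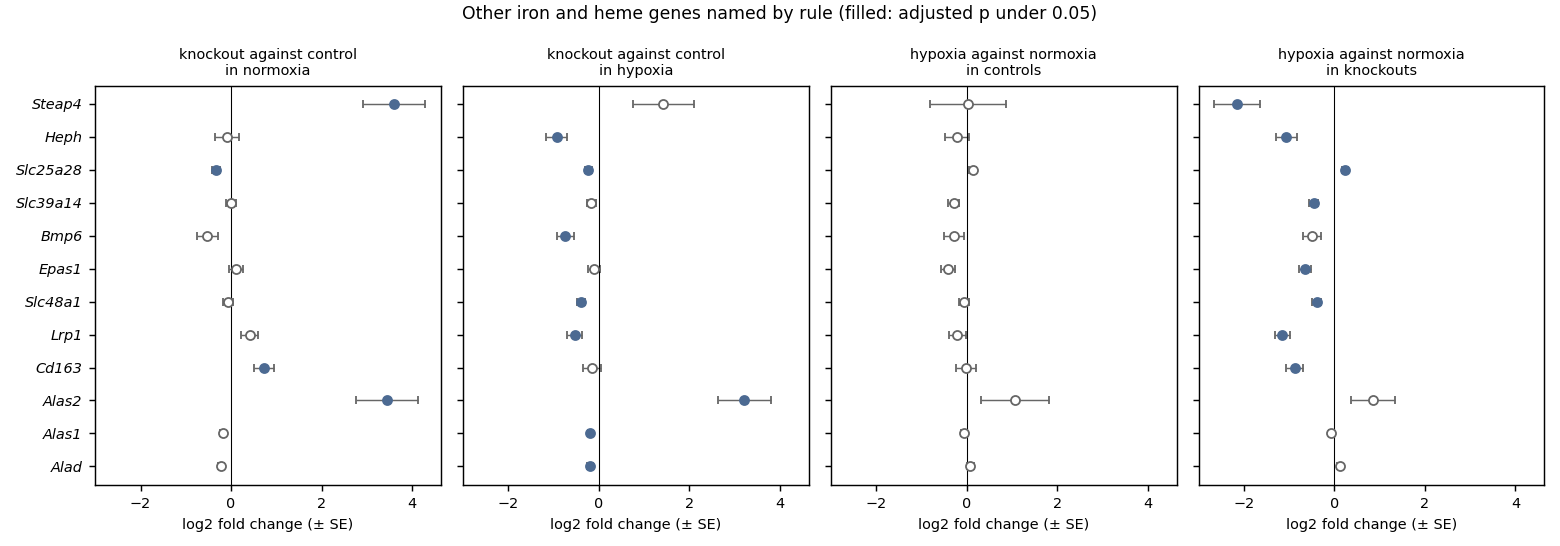
Log2 fold changes (horizontal axis, points) with SE (bars) of 12 other iron and heme genes in 4 comparisons, filled where the edgeR adjusted p was under 0.05. Steap4 and Alas2 show the largest rises in normoxic knockouts (3.61 and 3.44), and no point is filled for hypoxic against normoxic controls.

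For 3 members the tested genes with the most similar levels were listed by Pearson r of log2 CPM over the 19 libraries, which share group structure and depth. Those closest to Hmox1 were Socs3 (0.96), Mcl1 (0.95), H19 (0.95), Igfbp4 (0.93) and S1pr3 (0.93). Closest to Slc40a1 were B4galt5 (0.93), Pou2af1 (0.91), Olig2 (0.91), Ggta1 (0.90) and Rnf145 (0.89). For Hpx, whose counts were low, they were Kcnn2 (0.88), Dgka (0.82), Arl10 (0.80), Il17rc (0.80) and Avil (0.80).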

How the data were processed

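RNA was sequenced from brains of 19 mouse libraries in 4 groups. For each gene the authors deposited unnormalised counts, in whole numbers, and RPKM values. Per the submitters' processing notes HISAT2, edgeR and build GRCm39 were used. Tool versions, the counter and its strand setting are not given in the sources drawn on here. Per the labels, RNA was taken from brain tissue with a phenol reagent, whereas the series' design speaks of astrocyte ribosome pull-down. The deposited RPKM were the counts scaled by a length for each gene (largest relative difference 1.2e-13) and were used only to order genes. Among counts of 2 to 21, 65.9% were even, so both mates of a pair may have been counted, in which case counting error is larger than the totals alone would give. Of 55416 IDs, 52083 had a symbol in the name table used.

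Genes kept by filterByExpr (19854) entered a robust quasi-likelihood fit in edgeR 4.0.16, with TMM scaling and the 4 groups as terms over the 19 libraries, and p-values were adjusted over all genes (Benjamini-Hochberg) and a call at adjusted p under 0.05. CPM are counts scaled to a common TMM-adjusted library size. SE is that of the log2 fold change. The fit was tested on simulated counts. Since no label ties a library to its own animal, p-values reflect only the spread between libraries. The closest replicates, knockout hypoxia 4 and 5, differed by more than sampling noise (median chi-square 1.72 per gene against 0.45), so none were merged.

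Members and lists were chosen with earlier results of these data known. Named genes are all members, Pdcd10, the globins, of each pathway list up to 3 genes with the smallest adjusted p called between genotypes and up to 2 between oxygen levels, and 5 genes most like Hmox1, Slc40a1 and Hpx. Correlations used log2(CPM + 0.5) for members, 100000 permutations for 10 or more libraries and all permutations below that. Their p-values are unadjusted, because an adjustment over chosen members is no evidence, and the slope on globin RNA, added after seeing the data, is adjusted over all genes. Same-numbered knockout and control libraries in hypoxia correlated in their deviations at 0.168 to 0.384, above a set limit of 0.1. Libraries of different numbers were not compared, so these values do not show that numbers pair samples, and the labels do not say so. The main fit is unpaired, and a replicate block is given as an alternative. The alternatives were RLE scaling, 2 other filters, DESeq2 1.42.0, limma-voom 3.58.1 with sample weights, fits of 2 groups, a replicate block, globin RNA as a covariate, 2 sets of libraries left out, and each library left out in turn.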

Additional observations from a re-analysis of the deposited data

How the results depend on the processing

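With globin RNA as a covariate, 0 members were called between genotypes at either oxygen level, against 4 in normoxia and 6 in hypoxia, and all genes called fell from 2415 to 194 and from 3917 to 37. Globin RNA did not overlap between genotypes, so this fit can hardly separate them. In it the log2 fold change of Tfrc in hypoxia turned to 0.18, Heph to 1.36 (normoxia, adjusted p = 0.0327) and 0.39 (hypoxia), Bmp6 to 0.12 and Slc48a1 to 0.016 (both hypoxia), and, by the fit's construction, Hbb-bs to -0.16 and -0.15 and Hba-a1 to -0.086 and -0.14. Without the libraries low in Ddx3y, 1 member was called in normoxia and 3 in hypoxia, with 256 and 1467 genes in all, from fewer samples. Without knockout hypoxia replicates 1 to 3, the genes called in hypoxia fell to 1696 and 0 member slopes passed. Among knockouts, Steap3 alone then had an unadjusted permutation p under 0.05 for Pearson r with globin RNA, against 4 members with those replicates. The relations in controls do not involve these replicates. Leaving out a single library gave 2 to 6 member calls in normoxia, 3 to 7 in hypoxia and 1 to 3 called slopes, and summed globin differences in normoxia of 3.32 to 4.21, where an exact permutation p cannot go below 0.0571. The replicate block used only libraries whose number occurs in both groups. These were replicates 1 to 4 in normoxia, 3 to 6 in hypoxia, 1 to 4 between oxygen levels in knockouts and 3 and 4 in controls. Each such fit held fewer libraries than the main fit, so the effects of the block and of the libraries left out cannot be told apart. With the block, 3 members were called in normoxia (Hmox1 at 0.80, adjusted p = 0.0538), 5 in hypoxia and 0 between oxygen levels in knockouts (Cp -0.84, Tfrc -0.90, Slc11a2 -0.71), where 1 gene of 2489 was left. In normoxia and between oxygen levels the correlations of same-numbered libraries were -0.39 to 0.289, and the interaction had no paired fit. Whether numbers pair samples is not known in any comparison. The block called 1700 and 2612 genes in all between genotypes, against 2415 and 3917. DESeq2 called 6 and 7 members among 3346 and 4886 genes, adding Cp (0.81) and Ftl1 (0.31) in normoxia and Fth1 (0.34) in hypoxia. Between oxygen levels, DESeq2 called 140 genes in controls and limma-voom 400, against 17, with 35 in a fit of those groups, 44 with the block, 37 without knockout hypoxia replicates 1 to 3 and 3 without the libraries low in Ddx3y. In knockouts the 2489 became 1197 with limma-voom, 981 with the 2 groups alone, 1627 with the globin covariate, 1394 without replicates 1 to 3 and 1058 without the libraries low in Ddx3y. The interaction's 2 genes became 108 with DESeq2, 109 with the globin covariate and 6 without the libraries low in Ddx3y. Member values that were not called changed sign without a call in 44 cases. The causes were not tested. Hpx was not tested at a mean CPM of at least 1, and at 24 to 84 counts it is the member most limited by depth.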
